A study of Homo sapiens with 6 samples.

Results

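The genes described here are the 4 ID genes (ID1, ID2, ID3 and ID4) and 6 genes of the bone morphogenetic protein (BMP) pathway: the ligands BMP2 and BMP4, the receptors BMPR1A and BMPR2, and the SMAD genes SMAD6 and SMAD9. They were chosen by name, which gave 10 of the 23228 genes counted in each library, and all 10 had enough counts to be tested. RNA was sequenced from HEC-1-A, a human endometrial adenocarcinoma cell line, with 3 control libraries and 3 libraries from cells that received SMIP34 for 24 h. SMIP34 is a small molecule that binds PELP1, a scaffold protein that acts in ribosome assembly and hormone signalling, and the dose was 20 µM. All 6 libraries came from 1 line grown in McCoy's 5A medium with serum, and serum can itself carry BMP ligands. The study's methods state that controls received vehicle, while the labels name only the medium. Neither source says whether the libraries of a group came from separate cultures. The p-values therefore set differences only against the spread between these libraries, which the test estimates partly from all genes together.

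BMP ligands are secreted dimers that bring together type I receptors, such as BMPR1A, and type II receptors, such as BMPR2. The type II receptor phosphorylates the type I receptor, which phosphorylates SMAD1, SMAD5 or SMAD9, and these enter the nucleus with SMAD4. The ID genes are among the best known direct targets of these SMADs and are often read as a measure of the pathway's output. ID proteins have a helix-loop-helix domain but no DNA-binding region, so they hold E proteins such as TCF3 in pairs that cannot bind DNA. SMAD6 and SMAD7 are also induced by the pathway and inhibit it. In endometrium, BMP2 is known for its part in the change of stromal cells before implantation, while HEC-1-A cells are epithelial.

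Promoters of 5 of the genes are shown first, as RefSeq gives them for GRCh38.p14, each 300 bases long and written 5′ to 3′ on the gene's strand. ID2, ID4, BMPR2 and BMP4 are shown because they were called between the groups (for BMP4, the 2 of its 3 windows with a match), and SMAD6 because its promoter holds a rare SMAD motif. Capitals mark each match to GGCGCC, a GC-rich element that BMP-activated SMADs bind, to GTCTAGAC, a palindromic SMAD-binding element, or to CANNTG, the E-box that E proteins bind when not held by ID proteins. Each motif equals its own reverse complement apart from the N positions, so one search covers both strands, and no matches overlapped.
ID2 (chr2:8681806-8682105, plus strand): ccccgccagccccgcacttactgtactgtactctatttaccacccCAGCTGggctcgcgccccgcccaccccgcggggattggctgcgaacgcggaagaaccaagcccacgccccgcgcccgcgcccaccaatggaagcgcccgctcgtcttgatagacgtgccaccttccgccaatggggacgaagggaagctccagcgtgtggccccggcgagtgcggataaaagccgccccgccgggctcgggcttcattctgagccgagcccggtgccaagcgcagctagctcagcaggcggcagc
ID4 (chr6:19837120-19837419, plus strand): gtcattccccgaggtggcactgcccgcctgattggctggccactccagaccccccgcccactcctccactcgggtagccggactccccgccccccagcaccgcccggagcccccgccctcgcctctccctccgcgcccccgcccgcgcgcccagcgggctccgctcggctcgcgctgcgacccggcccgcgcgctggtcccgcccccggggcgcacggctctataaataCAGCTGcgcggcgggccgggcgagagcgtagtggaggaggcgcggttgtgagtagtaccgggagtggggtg
SMAD6 (chr15:66701986-66702285, plus strand): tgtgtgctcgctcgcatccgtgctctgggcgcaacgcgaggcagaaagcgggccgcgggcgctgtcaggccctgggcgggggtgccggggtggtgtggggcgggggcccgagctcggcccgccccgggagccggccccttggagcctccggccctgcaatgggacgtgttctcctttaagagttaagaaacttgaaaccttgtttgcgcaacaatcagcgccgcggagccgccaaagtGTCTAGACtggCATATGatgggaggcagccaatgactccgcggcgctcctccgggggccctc
BMPR2 (chr2:202376077-202376376, plus strand): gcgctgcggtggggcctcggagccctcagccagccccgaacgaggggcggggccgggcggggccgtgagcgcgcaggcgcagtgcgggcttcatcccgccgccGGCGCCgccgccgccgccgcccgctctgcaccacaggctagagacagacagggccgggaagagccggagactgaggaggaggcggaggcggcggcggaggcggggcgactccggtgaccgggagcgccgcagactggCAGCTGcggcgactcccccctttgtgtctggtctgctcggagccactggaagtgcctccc
BMP4 (chr14:53955001-53955300, minus strand): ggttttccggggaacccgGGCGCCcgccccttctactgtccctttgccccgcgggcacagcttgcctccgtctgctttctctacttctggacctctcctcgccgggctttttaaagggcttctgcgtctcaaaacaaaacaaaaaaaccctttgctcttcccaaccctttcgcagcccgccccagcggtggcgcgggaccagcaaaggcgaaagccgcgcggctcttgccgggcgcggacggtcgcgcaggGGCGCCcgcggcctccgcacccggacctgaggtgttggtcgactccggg
BMP4 (chr14:53953346-53953645, minus strand): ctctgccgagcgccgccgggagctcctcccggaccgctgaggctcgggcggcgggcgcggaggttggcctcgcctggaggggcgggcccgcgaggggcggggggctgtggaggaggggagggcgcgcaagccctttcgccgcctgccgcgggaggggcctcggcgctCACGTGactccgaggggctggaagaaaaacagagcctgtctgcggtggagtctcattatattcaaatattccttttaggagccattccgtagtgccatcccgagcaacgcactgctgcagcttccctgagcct

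The sequence table held promoters for 9 of the 10 genes, in 11 windows, and BMP2 had no entry. GTCTAGAC was found in the promoter of SMAD6 and in 71 of all 35116 promoters of the same length (0.202%). GGCGCC was found in 2 of the 11 windows, 1 of the 3 windows of BMP4 and that of BMPR2, against 19.2% of all promoters. An E-box stood in 7 of the 11 windows, those of ID2, ID4, SMAD6, SMAD9, BMPR1A, BMPR2 and 1 of the 3 windows of BMP4, against 68.7% of all promoters. The E-box in the promoters of ID2, ID4 and BMPR2 was CAGCTG. The share of all promoters with CAGCTG was not counted, and a relation of E-boxes to the fold changes was not tested. The 300-base windows of ID1 and ID3 held no match to these motifs, and sequence outside the windows was not searched. A match describes the letters of a window and no binding was measured here.

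The effect of SMIP34 on these genes was small and went both ways. Tests used edgeR's quasi-likelihood method with Benjamini-Hochberg adjustment over the 13408 genes tested, and a gene was called at an adjusted p under 0.05. BMP4 and BMPR2 were called higher, which is 2 of 10 genes beside 17.4% of all genes tested. ID2 and ID4 were called lower, which is 2 of 10 beside 17.2% of all genes tested. The shares of called genes were therefore near those of the whole transcriptome. The study also set a limit on size, an absolute log2 fold change over 0.5. None of the 10 genes went beyond it, while 3.31% of all genes tested were both called and beyond it, in either direction. That count was also 0 at an unadjusted p under 0.05, with DESeq2 and with limma voom, while BMP4 passed the limit when libraries were scaled by size only, with offsets for gene length, and without control replicate 2, SMIP34 replicate 1 or SMIP34 replicate 3. Across the 10 genes the median log2 fold change was -0.022, beside -0.0022 for all genes tested. The values of the 3 libraries of one group lay wholly above or below those of the other for 3 of the 10 genes, ID2, ID4 and BMPR2, beside 44.5% of all genes tested. Levels are given as CPM, counts brought to a common library size with TMM factors.

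**Figure D1:**
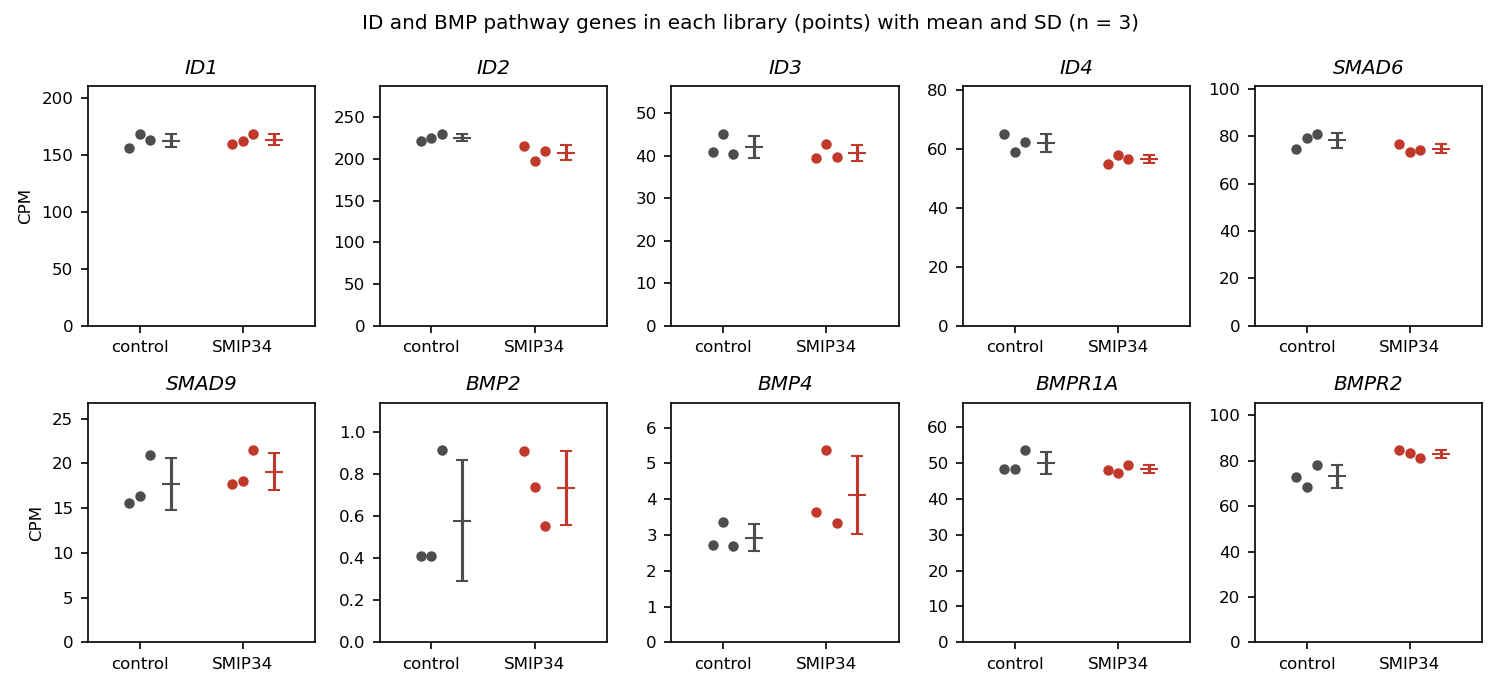
CPM of each of the 10 genes in 3 control and 3 SMIP34 libraries (points), with the group mean and SD (n = 3) beside them; each vertical axis starts at 0 and has its own range. The groups lie apart for ID2, ID4 and BMPR2, and the SMIP34 points of BMP4 are spread by 1 library at 5.36 CPM.

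The ID genes were strongly expressed in both groups, and they did not move as one. ID1, the member most often used as a reporter of BMP signalling, lies on chromosome 20 of hg19 (30193086 to 30194317, plus strand). Its level was 156, 168 and 163 CPM in the control libraries and 160, 162 and 168 CPM in the SMIP34 libraries. The groups overlapped, with means of 163 ± 6.03 and 163.5 ± 4.40 CPM (SD, n = 3). The log2 fold change of ID1 was 0.0072 (SE 0.033, adjusted p = 0.892 in edgeR's quasi-likelihood test). Its 95% confidence interval ran from 0.959-fold to 1.05-fold with this scaling. With offsets for gene length, described further on, ID1 was called higher at a log2 fold change of 0.082 (adjusted p = 0.0372).

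ID2 fell. ID2, a widely expressed regulator of differentiation and the cell cycle, lies on chromosome 2 of hg19 (8822113 to 8824583, plus strand). Its level was 221, 225 and 229.6 CPM in controls and 215, 197 and 209.7 CPM with SMIP34. Every SMIP34 library was below every control library, and SMIP34 replicate 2 was the lowest. The means were 225 ± 4.28 and 207 ± 9.15 CPM (SD, n = 3), a log2 fold change of -0.12 (SE 0.032) with an adjusted p of 0.00499 in edgeR's quasi-likelihood test. The call of ID2 was lost with offsets for gene length (-0.049, adjusted p = 0.222) and without SMIP34 replicate 2 (-0.084, adjusted p = 0.0723).

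ID4 fell by a similar fraction. ID4, which is held to act partly against the other ID proteins, lies on chromosome 6 of hg19 (19837617 to 19840915, plus strand). Its level was 65.0, 58.9 and 62.3 CPM in controls and 55.0, 57.9 and 56.6 CPM with SMIP34. The groups did not overlap, but the lowest control and the highest SMIP34 library were close. The means were 62.0 ± 3.05 and 56.5 ± 1.49 CPM (SD, n = 3), a log2 fold change of -0.13 (SE 0.044) with an adjusted p of 0.0200 in edgeR's quasi-likelihood test. The call of ID4 was lost with DESeq2 at nearly the same log2 fold change (-0.13, adjusted p = 0.0565) and with offsets for gene length (-0.098, adjusted p = 0.0774). It was also lost without control replicate 1 (-0.099, adjusted p = 0.127), SMIP34 replicate 1 (-0.11, adjusted p = 0.0965) or SMIP34 replicate 3 (-0.13, adjusted p = 0.0503), and the value was negative in all 15 other fits.

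ID3, the ID gene nearest to ID1 in its pattern of expression across tissues, lies on chromosome 1 of hg19 (23884409 to 23886322, minus strand). Its level was 40.8, 45.1 and 40.3 CPM in controls and 39.5, 42.8 and 39.8 CPM with SMIP34. The groups overlapped, and in each group replicate 2 was the highest. The log2 fold change was -0.050 (SE 0.053) with a 95% confidence interval from -0.16 to 0.058 and an adjusted p of 0.501 in edgeR's quasi-likelihood test.

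The summed level of the 4 ID genes was 483, 497 and 495 CPM in controls and 469, 460.4 and 474 CPM with SMIP34. The sum was lower in every SMIP34 library than in any control, and ID2 made up most of the difference. The groups also did not overlap for 44.5% of all genes tested. Among all tested genes with 1206 to 1714 bases of exon, which include ID1, ID2 and ID3, the median log2 fold change was -0.073. The difference in the sum was not tested. Ratios between ID genes within a library do not depend on the scaling, and 3 of them were tested against ID1. The log2 ratio of ID2 to ID1 was 0.47 ± 0.047 in controls and 0.34 ± 0.077 with SMIP34 (SD, n = 3), a difference of -0.13 (p = 0.2 in an exact two-sided permutation test, 0.3 after Benjamini-Hochberg adjustment over 3 ratios). For ID4 to ID1 the difference was -0.14, with the same p and adjusted p in the exact permutation test. That difference was -0.081 without control replicate 1 and -0.21 without control replicate 2. For ID3 to ID1 it was -0.056 (exact permutation p = 0.5, adjusted p = 0.5), and between -0.018 and -0.098 with 1 library left out. With 3 libraries against 3 the smallest p this test allows is 0.1, so it could not pass 0.05, and in each ratio the groups overlapped.

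The 5 genes whose log2 CPM followed ID1 most closely over the 6 libraries, out of 10909 others averaging 5 CPM or more, were IL15RA, METTL5, C17orf80, ZNF14 and FAHD2B. Their Pearson correlations lay between 0.970 and 0.987. With 6 libraries and so many genes such values describe these libraries only, and none of the 5 genes was called.

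Neither SMAD gene of the set was called. SMAD6, an inhibitory SMAD that blocks BMP receptors and is itself a BMP target, lies on chromosome 15 of hg19 (66994674 to 67074337, plus strand). Its level was 74.6, 79.1 and 80.9 CPM in controls and 76.8, 73.2 and 74.2 CPM with SMIP34. Control replicate 1 lay among the SMIP34 libraries, and the log2 fold change was -0.067 (SE 0.040) with a 95% confidence interval from -0.15 to 0.015 and an adjusted p of 0.206 in edgeR's quasi-likelihood test.

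SMAD9, also called SMAD8, is the least studied of the SMADs that BMP receptors phosphorylate, and lies on chromosome 13 of hg19 (37418968 to 37494409, minus strand). Its level was 15.6, 16.4 and 21.0 CPM in controls and 17.7, 18.1 and 21.4 CPM with SMIP34. In both groups replicate 3 was the highest, and the groups overlapped. The log2 fold change was 0.11 (SE 0.092, adjusted p = 0.389 in edgeR's quasi-likelihood test). Without control replicate 3 the log2 fold change of SMAD9 was 0.25 with an adjusted p of 0.0261, so that 1 library decided the call.

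Both ligands were weakly expressed. BMP4, a ligand with roles from early patterning to epithelial differentiation, lies on chromosome 14 of hg19 (54416455 to 54423554, minus strand). It had 53, 73 and 56 counts in controls and 80, 116 and 72 counts with SMIP34. On the CPM scale this was 2.73, 3.36 and 2.69 against 3.65, 5.36 and 3.33. SMIP34 replicate 2 was far above the others, and SMIP34 replicate 3 was just below control replicate 2, so the groups overlapped.

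The means of BMP4 were 2.93 ± 0.373 and 4.11 ± 1.09 CPM (SD, n = 3). It was called higher, with a 1.40-fold change (95% confidence interval 1.08 to 1.82), a log2 fold change of 0.48 (SE 0.184) and an adjusted p of 0.0431 in edgeR's quasi-likelihood test. Without SMIP34 replicate 2 the log2 fold change was 0.25 and the adjusted p 0.364, and the call was also lost without control replicate 1 (0.120), without control replicate 3 (0.109), with DESeq2 (0.0932) and with limma voom (0.0624).

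BMP2, a close relative of BMP4 that binds the same receptors, lies on chromosome 20 of hg19 (6748745 to 6760910, plus strand). It had 8, 9 and 19 counts in controls and 20, 16 and 12 counts with SMIP34. Counts this low left the interval wide: the log2 fold change was 0.34 (SE 0.385), with a 95% confidence interval from 0.731-fold to 2.19-fold and an adjusted p of 0.539 in edgeR's quasi-likelihood test. The log2 fold change of BMP2 was 0.83 without control replicate 3, 0.16 without control replicate 1, 0.13 without control replicate 2 and 0.15 without SMIP34 replicate 1, none of them called. The confidence interval of BMP2 held both a fall and a rise, so no direction can be given.

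Of the receptors, BMPR2 rose and BMPR1A was not called. BMPR2, the type II receptor, which carries a long cytoplasmic tail and starts the signal, lies on chromosome 2 of hg19 (203241050 to 203432474, plus strand). Its level was 72.6, 68.3 and 78.3 CPM in controls and 84.5, 83.6 and 81.2 CPM with SMIP34. All SMIP34 libraries were above all controls, and the controls were the more spread. The means were 73.1 ± 5.01 and 83.1 ± 1.72 CPM (SD, n = 3), a rise of 13.8% or a log2 fold change of 0.19 (SE 0.043) with an adjusted p of 0.00134 in edgeR's quasi-likelihood test. With offsets for gene length the log2 fold change of BMPR2 was 0.057 with an adjusted p of 0.275, the only one of 15 other fits (other tests, scalings and filters, the offsets, a replicate block and each library left out) in which the call was lost.

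BMPR1A, the type I receptor for BMP2 and BMP4, lies on chromosome 10 of hg19 (88516396 to 88684945, plus strand). Its level was 48.2, 48.2 and 53.4 CPM in controls and 48.0, 47.2 and 49.4 CPM with SMIP34. The groups overlapped and control replicate 3 stood highest. The log2 fold change was -0.051 (SE 0.048) with a 95% confidence interval from -0.15 to 0.047 and an adjusted p of 0.443 in edgeR's quasi-likelihood test.

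Per exon length the genes were ordered ID2, ID1, ID3, ID4, SMAD6, BMPR1A, BMPR2, SMAD9, BMP4 and BMP2 in control cells. Their control means on the RPKM scale (CPM per 1000 bases of exon) were 165, 132, 32.7, 26.5, 24.8, 13.8, 6.05, 3.16, 1.41 and 0.184 in that order. The same order held with SMIP34. Of neighbours in this order, only ID4 and SMAD6 overlapped, in both groups. The ID genes stood far above the ligands. BMPR1A stood above BMPR2 on this scale only, since in CPM the control means were 49.9 for BMPR1A and 73.1 for BMPR2.

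The direction of the fold changes followed exon length across all genes. When the tested genes were split by exon length into 10 classes of about equal size, the median log2 fold change went from -0.10 in the shortest class to 0.12 in the longest. ID1, ID2 and ID3 stood in class 2 (1206 to 1714 bases), where the median was -0.073, 28.0% of genes were called lower and 6.11% higher. BMPR2, with 12070 bases of exon, stood in the longest class, where 39.6% of genes were called higher and 5.97% lower. ID2 and BMPR2 had the direction of the median gene of their class, and neither was called with offsets that level each library on gene length. ID4, in class 4, was also not called with offsets, but its log2 fold change remained at -0.098, with a 95% confidence interval from -0.19 to -0.012. The cause of the relation with length was not tested. BMP4 was in class 3, where the median was -0.056, and its log2 fold change with offsets was 0.53 with an adjusted p of 0.0253 in edgeR's quasi-likelihood test. With offsets for length 2 of the 10 genes were thus called higher (BMP4 and ID1) and 0 lower, beside 16.6% and 14.9% of all genes, and at an unadjusted p under 0.05 the count lower was 1.

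**Figure D2:**
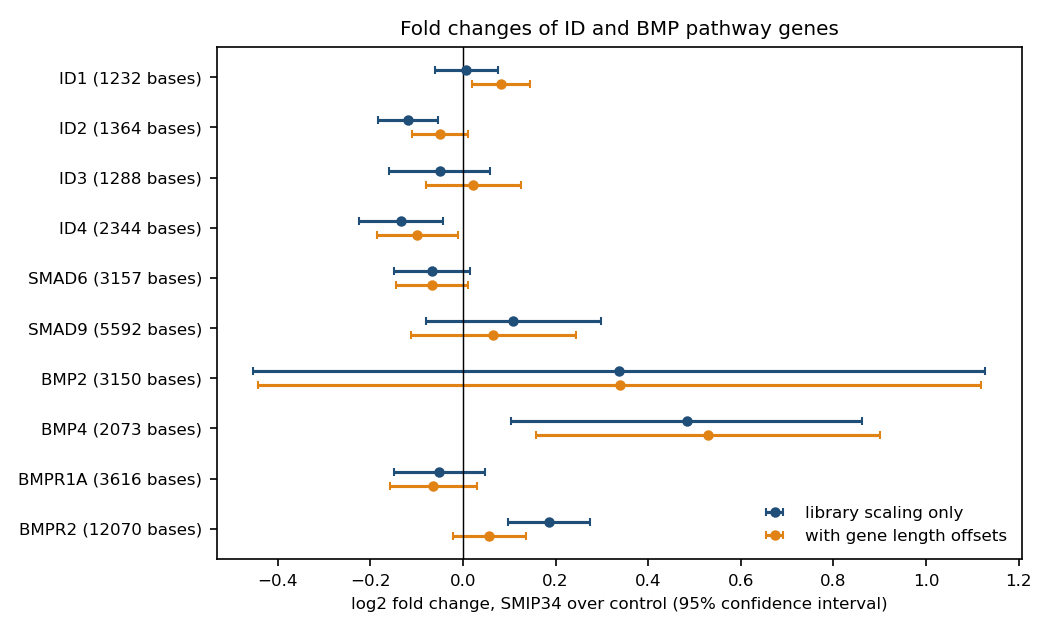
Log2 fold change of SMIP34 over control (horizontal axis) with its 95% confidence interval for each of the 10 genes, labelled with exon length, with library scaling only (blue) and with offsets for gene length (orange). With offsets the interval of BMPR2 moves toward 0, from 0.19 to 0.057, and ID1 moves from 0.0072 to 0.082.

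**Figure D3:**
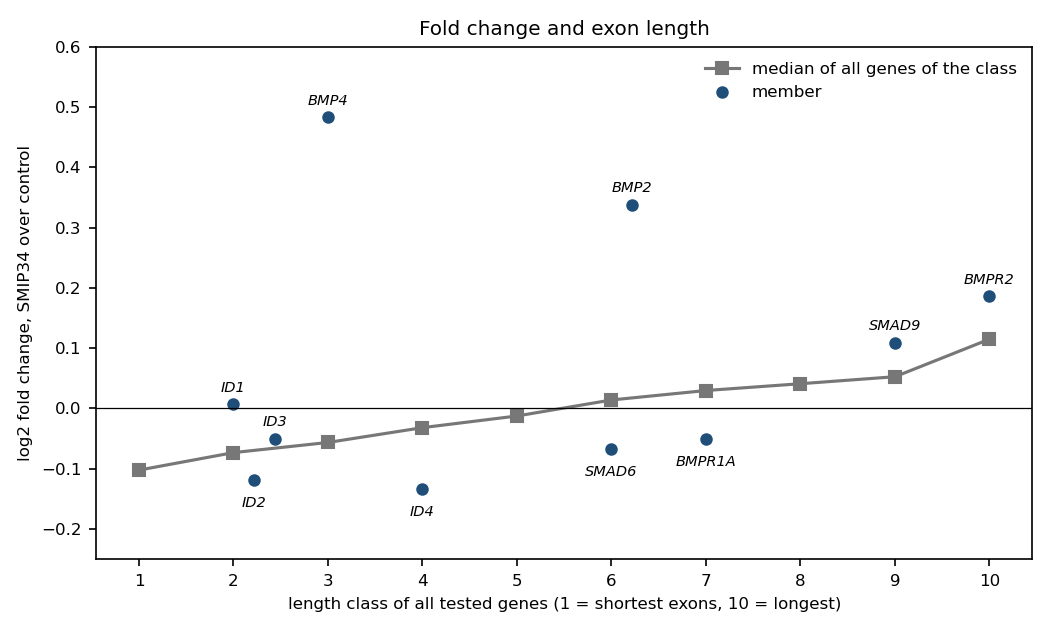
Median log2 fold change of all tested genes in each of 10 classes of exon length (grey squares) and the log2 fold changes of the 10 genes (blue points; genes of the same class are drawn side by side). The medians climb from -0.10 to 0.12, with ID2 below and BMPR2 above the median of its class, and BMP4 farthest above at 0.48.

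The other genes of the pathway were taken from lists of ligands, receptors, SMADs, antagonists, intracellular regulators, targets and partners of ID proteins. Beyond the 10 genes these lists held 73 genes, of which 38 were tested, 12 had no count in any library and 23 had too few. No count in a library allows a level of up to 0.137 to 0.155 CPM (3 counts), from counting error only. Of the 38, 12 (31.6%) were called higher and 4 (10.5%) lower, beside 17.4% and 17.2% of all genes, and 3 of the called genes (ACVRL1, GATA2 and MSX2) also passed the fold limit. BAMBI, a decoy receptor named after its values were seen, had a log2 fold change of 0.68 (SE 0.331) but was not called (adjusted p = 0.115 in edgeR's quasi-likelihood test). For the 38 genes the median log2 fold change was 0.092 and the median exon length 3768.5 bases, against 3027.5 for all genes tested. With offsets for length, 11 (28.9%) were called higher and 4 (10.5%) lower, beside 16.6% and 14.9% of all genes.

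Among the other SMADs, SMAD7 and SMAD5 were called higher, while SMAD1 and SMAD4 were not called. SMAD7, the second inhibitory SMAD, which acts on both the BMP and the TGF-beta branch, had 32.8, 37.6 and 33.9 CPM in controls and 40.3, 45.7 and 42.2 CPM with SMIP34. The groups did not overlap, with a log2 fold change of 0.30 (SE 0.057) and an adjusted p of 0.000220 in edgeR's quasi-likelihood test. SMAD5, which BMP receptors phosphorylate, had 81.5, 77.6 and 85.6 CPM in controls and 101, 96.0 and 92.0 CPM with SMIP34. Its log2 fold change was 0.24 (SE 0.042, adjusted p = 5.07e-05 in edgeR's quasi-likelihood test). Both were called in each of the 15 other fits, in which SMAD6, the inhibitory SMAD of the set, was called in none.

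Of the 15 tested genes on the target list, 3 (20.0%) were called higher and 3 (20.0%) lower, near the 17.4% and 17.2% of all genes, with ID2 and ID4 among the lower, and the median log2 fold change was 0.0072. GATA2, a transcription factor of haematopoietic and endometrial cells, had 13, 20 and 19 counts in controls and 48, 41 and 37 with SMIP34. It was the gene with the largest rise on the lists, with a log2 fold change of 1.20 (SE 0.262, adjusted p = 0.000783 in edgeR's quasi-likelihood test). MSX2, a homeobox gene, rose from 2.80 ± 0.161 to 4.16 ± 0.591 CPM (SD, n = 3), and this call was lost without SMIP34 replicate 3 (adjusted p = 0.0624 in edgeR's quasi-likelihood test). ATOH8, a helix-loop-helix factor, was lower at 3.28 ± 0.0468 CPM against 4.30 ± 0.171 (SD, n = 3), with an adjusted p of 0.0430 in edgeR's quasi-likelihood test, a call that was lost in 12 of the 15 other fits. The third target called higher was SMAD7. With offsets for length 4 of the 15 were called higher and 1 lower, beside 16.6% and 14.9% of all genes. ID1 was then among the higher, and neither ID2 nor ID4 was called. DESeq2 called 3 of the 15 higher and 1 lower, beside 1819 and 1767 of all 13408 genes.

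All 12 intracellular regulators were tested, and 6 (50.0%) were called higher and 1 (8.33%) lower, beside 17.4% and 17.2% of all genes. Their median exon length was 3864 bases, in length class 7, where 20.7% of all genes were called higher. SKIL, which represses SMAD-driven transcription, rose from 31.5 ± 1.74 to 39.7 ± 2.25 CPM (SD, n = 3), a log2 fold change of 0.33 (SE 0.056). SMURF2 and SMURF1, ubiquitin ligases that mark SMADs and receptors for degradation, rose by 0.24 (SE 0.038) and 0.20 (SE 0.051) on the log2 scale. LEMD3, an inner nuclear membrane protein that binds SMADs, rose by 0.21 (SE 0.064), a call lost without control replicate 1 or SMIP34 replicate 2. SKI and MAP3K7 were also called higher, though DESeq2 called neither and the offsets for length lost SKI, and FKBP1A, which binds type I receptors and holds them inactive, was the 1 lower, from 255 ± 6.50 to 226 ± 8.48 CPM (SD, n = 3). These last 3 genes were named after their values were seen. With offsets for length 5 of the 12 were called higher and 1 lower, beside 16.6% and 14.9% of all genes.

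Of the 6 tested extracellular antagonists, FSTL3, which traps activins and some BMPs, was called higher (log2 fold change 0.22, adjusted p = 0.0462 in edgeR's quasi-likelihood test) and KCP was called lower (-0.25, adjusted p = 0.0167). DESeq2 called neither, and without 1 library the call of KCP was lost for control replicate 2, SMIP34 replicate 1 or SMIP34 replicate 3 and that of FSTL3 for any library. Of the 7 tested receptors, the only one called beside BMPR2 was ACVRL1, a type I receptor best known in endothelium, with 17, 14 and 10 counts in controls and 5, 4 and 9 with SMIP34, a call that was lost in 5 of the 13 other fits that gave it an adjusted p. Of 14 ligands, 4 were tested, and BMP4 was the only one called.

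Of the 4 tested genes on the list of helix-loop-helix partners, HES1 alone was called. HES1, a Notch target with its own DNA-binding domain, had 21.6, 23.1 and 21.9 CPM in controls and 28.6, 28.9 and 28.5 CPM with SMIP34, a log2 fold change of 0.37 (SE 0.059, adjusted p = 2.55e-05 in edgeR's quasi-likelihood test). TCF3, the E protein that ID proteins classically bind, had means of 202 CPM in both groups and an adjusted p of 0.950 in edgeR's quasi-likelihood test. TCF3 was named after its values were seen.

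**Figure D4:**
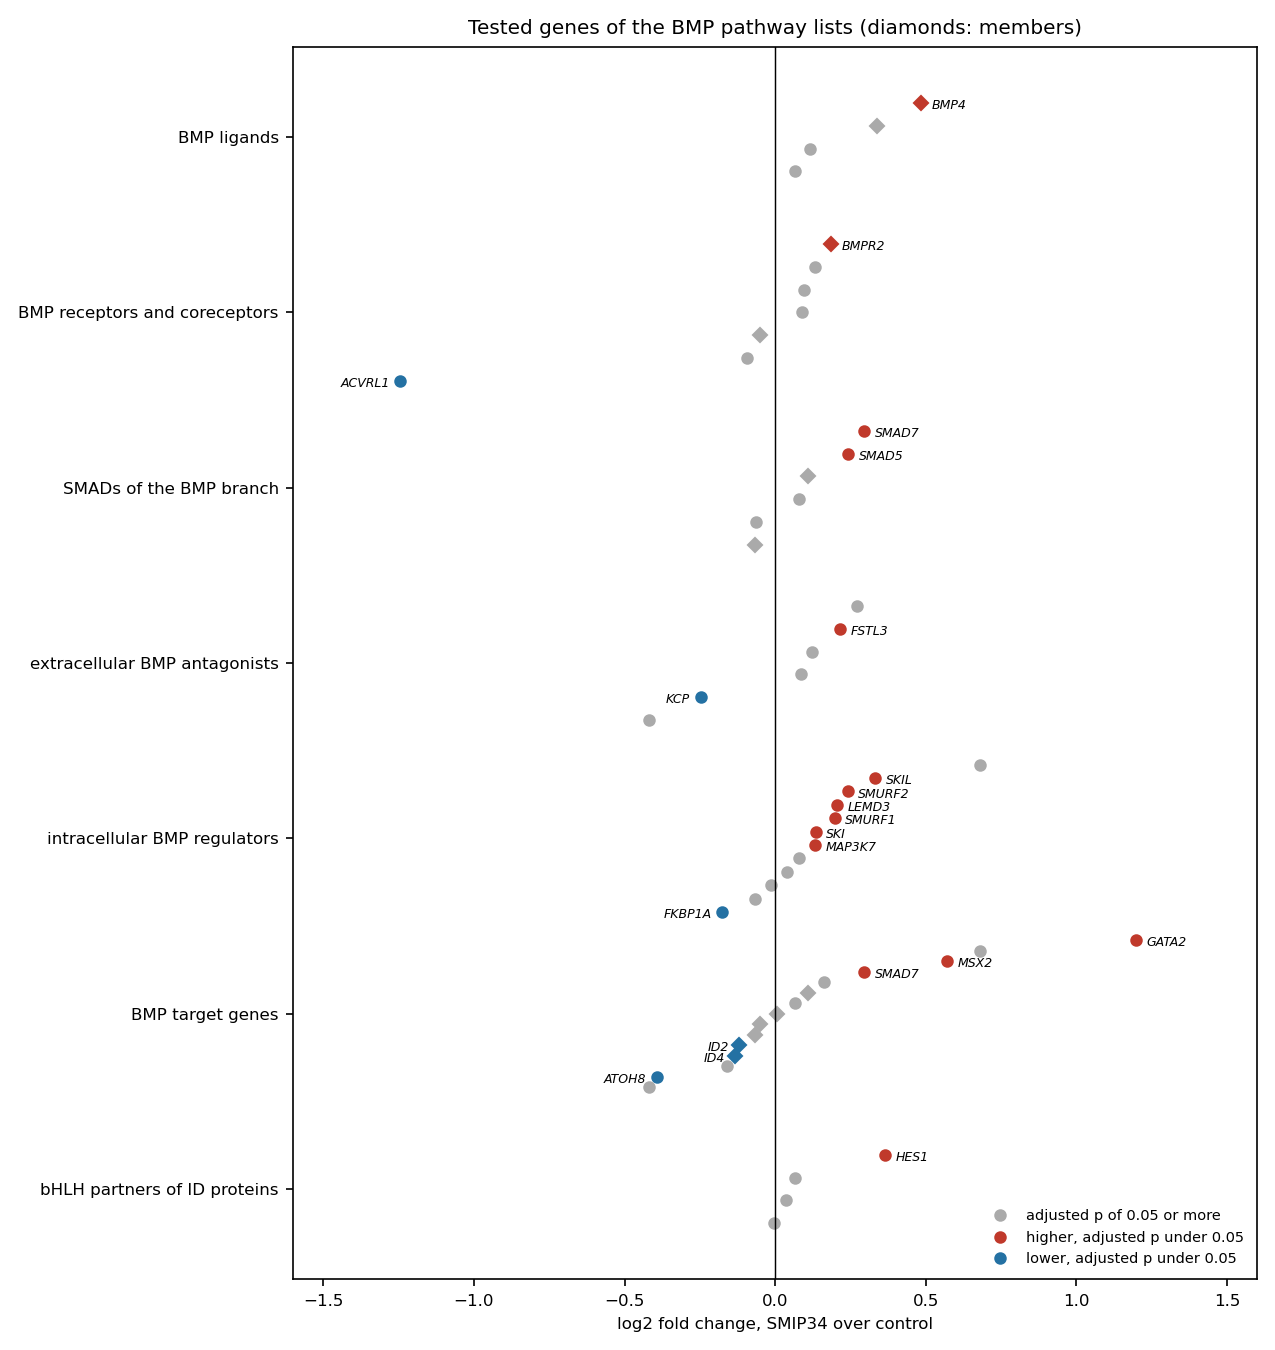
Log2 fold change of SMIP34 over control (horizontal axis) for the tested genes of each pathway list (rows; red higher and blue lower at an adjusted p under 0.05, grey otherwise; diamonds are the 10 genes of the set). The largest share of calls is among the intracellular regulators, with 6 higher and 1 lower of 12 (all genes tested: 17.4% higher and 17.2% lower), and GATA2 lies farthest to the right at 1.20.

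The libraries held 19562711 to 22014835 counts on genes, with TMM factors between 0.988 and 1.01. Control replicate 1 had a count for 16881 genes, and the other 5 libraries for 15965 to 16100. The epithelial identity of the line was seen in EPCAM, KRT8, KRT18 and KRT19, which lay between 359 and 883 CPM in every library, and in CDH1 and PAX8, while MUC1 lay at 7.21 to 10.3 CPM. The 7 epithelial markers summed to 3221 to 3321 CPM in controls and 3057 to 3067 CPM with SMIP34, without overlap. KRT19 went from a mean of 833 to 742 CPM and KRT8 from 658 to 607 CPM, while CDH1 went from 209.6 to 215 CPM. ESR1 and PGR, the receptors for oestrogen and progesterone, reached at most 0.0515 CPM. The 6 stromal markers summed to 3.63 to 4.47 CPM in controls and 4.69 to 5.18 CPM with SMIP34, mostly COL1A1, while LUM was at 0 in all libraries. The 4 leukocyte markers summed to 0.818 to 1.49 CPM in controls and 1.11 to 2.23 CPM with SMIP34, mostly CD68, with CD3E at 0. The 3 endothelial markers summed to at most 0.412 CPM. The part of other cells, or of the lower epithelial sum, in the values of the ID and BMP genes was not tested. In bulk RNA, a gene lower in each cell and a smaller share of cells that express it cannot be told apart.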

How the data were processed

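RNA from 3 control and 3 SMIP34-treated HEC-1-A libraries was measured. The values are estimated counts per gene, deposited without normalization. Per the file headers, the authors' featureCounts 1.5.0-p1 run counted reads by strand over exons of the hg19 UCSC annotation, with a minimum mapping quality of 2, and split reads with several places or genes into fractions. The submitters' processing notes name HISAT2, while the study's methods name tophat2 and HTSeq. The labels name library kits of both Illumina and NEB without assigning them to libraries, so whether kits differed between the groups is not known. The headers set the paired-end option, while single reads are described. Between 6.31 and 7.43% of values in a library were not whole, and values were rounded.

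Counts were filtered with filterByExpr (13408 genes left), scaled by TMM and tested with the quasi-likelihood method of edgeR 4.0.16 (R 4.3.3). Adjusted p-values are Benjamini-Hochberg values for the whole table of tested genes. Standard errors were the absolute log2 fold change divided by the square root of the F statistic. The confidence intervals also used the total degrees of freedom of the test. Depth was 19562711 to 22014835 counts a library. ID ratios used log2(count + 0.5). The alternatives were DESeq2 1.42.0, limma 3.58.1 voom, other scalings and filters, the legacy quasi-likelihood method, loess offsets on gene length (span 0.3), a replicate block and leaving out each library. The procedure was tested on simulated data. Libraries with the same number had deviations with correlations of -0.028, 0.033 and -0.011, so numbers were not taken as pairs. No libraries of a group agreed within sampling noise.

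Members and lists were chosen with earlier results of these data known. Genes named beyond the members are, per list, the called genes with the largest absolute fold change, up to 4, and the 5 most correlated with ID1. BAMBI, SKI, MAP3K7, FKBP1A, TCF3, SMAD1 and SMAD4 fall outside this rule and were named after their values were seen. Figures used matplotlib 3.10.9 in Python 3.11.15.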

Additional observations from a re-analysis of the deposited data

How the results depend on the processing

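Of the 10 genes, 2 were called higher and 2 lower. The counts were 0 and 0 with the fold limit, beside 3.31% of all genes tested in either direction. They were 1 and 1 with DESeq2, 1 and 2 with limma voom, and 2 and 0 with offsets for gene length. Each ran from 1 to 2 when 1 library was left out. Over all 13408 genes tested, 2339 higher and 2306 lower became 1819 and 1767 with DESeq2. They became 2321 and 2277 with limma voom and 2231 and 1999 with offsets. With 1 library left out, 1890 to 2363 were higher and 1800 to 2284 lower, of 13523 to 13556 tested. For the other pathway genes, 12 higher changed by less than 1.5 times in every alternative, while 4 lower became 1 with DESeq2, 2 without a filter and 1 to 3 with 1 library left out. The fold limit moved the member counts because it asks for a larger change, and the other causes were not tested. With 1 library left out, the log2 fold change of ID1 ran from -0.019 to 0.034, that of ID3 from -0.088 to 0.0059 and that of BMPR1A from -0.076 to 0.0018, and ID3 stood at 0.023 with offsets for length, none of them called. The replicate block gave 2 genes higher and 2 lower. Depth limits BMP2, which had 8 to 20 counts a library.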
